A study of Mus musculus with 75 samples.

Results

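Mpo, Elane, Prtn3, Ctsg, S100a8, S100a9, Lyz2 and Igsf6 were followed through mouse blood cell precursors that differed in population, in Kmt2c genotype and in exposure to interleukin-1 (IL-1). These 8 genes were chosen by name. All 8 were found among the 41388 mouse genes of both deposited tables of read counts. The set carries the name of the primary granule, and 4 members belong to that granule without reservation. Mpo encodes myeloperoxidase, which makes hypochlorous acid, and Elane, Prtn3 and Ctsg encode the serine proteases neutrophil elastase, proteinase 3 and cathepsin G. S100a8 and S100a9 encode calcium-binding proteins of the cytosol that pair as calprotectin. Lyz2 encodes lysozyme, which is stored in several granule types and is also made by macrophages. Igsf6 encodes a membrane protein of the immunoglobulin superfamily and is no granule protein. The members therefore fall into a granule quartet and 4 genes of other kinds, and they are described in that order.

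Neutrophils fill their granules in sequence. The contents of the primary, or azurophil, granule are transcribed in an early window at the promyelocyte stage. Genes of the secondary and tertiary granules, such as Ltf, Camp and Ngp, follow as the primary granule genes are shut off, and calprotectin becomes abundant late. The transcription factors PU.1, C/EBP, MYB, RUNX1 and GFI1 are known regulators of this sequence, and Kmt2c encodes a histone H3 lysine methyltransferase that acts at enhancers.

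RNA sequencing was done on 75 libraries from mice of 8 weeks of age, in 20 groups. The first experiment held 48 untreated libraries, with 4 in each of 12 groups. The populations were HSC, HPC, GMP and pGM, the last being pre-granulocyte-monocyte cells, and each was taken from the genotypes wild type (wt), Kmt2c f/+; Vav-Cre (het) and Kmt2c f/f; Vav-Cre (ko). The second experiment held 27 libraries, in which HSC or HPC came from wt mice or from Kmt2c f/f; Vav-Cre mice given vehicle (PBS) or IL-1 at 0.5 ug/mouse for 3 days, with 3 or 4 libraries in a group. HSC, HPC and GMP are the field's abbreviations for haematopoietic stem cells, haematopoietic progenitor cells and granulocyte-monocyte progenitors. Vav-Cre drives Cre in blood-forming cells and their descendants. The wt label names no Cre, so a difference of het or ko from wt could not be told apart from an effect of Cre itself, and only ko against het shares it. No label says that libraries of a group came from separate mice, so each p measures the spread between libraries, which may be technical.

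The promoters are shown first because the 4 granule genes share a short word there. The 250 bases before the RefSeq start of each gene were read from the RefSeq promoter table of build GRCm38.p6, in which all 8 members were found. That start is the first base of the GENCODE M21 gene in Ctsg and S100a9. It lies 42 to 203 bases inside the GENCODE gene in Igsf6, Lyz2, Elane, S100a8 and Mpo, and 5191 bases inside it in Prtn3. The word AGGAAGT, a core bound by ETS factors such as PU.1, was found on either strand in 6 of 8 members, against 7.69% of 32851 mouse promoters of the same length. It stood on the sense strand in Mpo, Elane, Prtn3 and Ctsg, and on the other strand in S100a8 and Lyz2. The stretches below hold the first match in each granule gene, written 5′ to 3′ on the gene's own strand, with AGGAAGT in capitals. The runs of Mpo, Elane and Prtn3 end before the first base that GENCODE M21 annotates as exon, and that of Ctsg ends at a length of 120 bases, ahead of its matches to the other words. The capital CAA that ends the run of Prtn3 opens a match to CAACNG. They lie at chr11:87793534-87793580 (plus strand), chr10:79886168-79886246 (plus), chr10:79879513-79879613 (plus) and chr14:56102705-56102824 (minus).
Mpo: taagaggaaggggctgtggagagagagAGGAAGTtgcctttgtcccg
Elane: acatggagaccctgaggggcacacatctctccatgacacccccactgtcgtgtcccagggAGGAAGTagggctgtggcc
Prtn3: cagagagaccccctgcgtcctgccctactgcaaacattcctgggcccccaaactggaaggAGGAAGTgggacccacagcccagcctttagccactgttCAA
Ctsg: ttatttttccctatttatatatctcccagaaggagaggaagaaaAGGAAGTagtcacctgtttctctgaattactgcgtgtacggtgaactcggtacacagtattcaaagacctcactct

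The word began 84 bases before the RefSeq start in Elane, 94 in Prtn3, 206 in Ctsg and 223 in Mpo, in each case outside annotated exons. The MYB word CAACNG was found in 4 of 8 members, Elane, Prtn3, Ctsg and Lyz2, against 29.3% of promoters. In Elane it began 51 bases and in Prtn3 56 bases before the RefSeq start, after AGGAAGT in both of these neighbouring protease genes. All 6 bases of that match in Elane and 3 of 6 in Prtn3 are annotated as exon. The RUNX word TGTGGT was found in 3 members, Ctsg, S100a9 and Lyz2, against 14.0% of promoters, and the C/EBP word TTGCNNAA in S100a9 alone, against 9.56%. Igsf6 held none of the 4 words. Both strands were searched, no match overlapped another, and the words were chosen after the sequences had been seen. A match is a string of letters in this window and was not measured as a bound site.

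In build GRCm38 with GENCODE M21, Elane (ENSMUSG00000020125) lies at chr10:79886247-79888215 and Prtn3 (ENSMUSG00000057729) beside it at chr10:79874476-79883174, both on the plus strand. Mpo (ENSMUSG00000009350) lies at chr11:87793581-87804413 and Ctsg (ENSMUSG00000040314) at chr14:56099881-56102574. S100a8 (ENSMUSG00000056054) at chr3:90668978-90670035 and S100a9 (ENSMUSG00000056071) at chr3:90692632-90695721 are close neighbours on opposite strands. Lyz2 (ENSMUSG00000069516) lies at chr10:117277331-117282321 and Igsf6 (ENSMUSG00000035004) at chr7:121064067-121074572. All 8 are protein-coding, and their reads were summed over annotated exons of each gene. Lyz2 has a near-identical copy, Lyz1, so the split of reads between them is uncertain.

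The libraries held 13.3 to 20.8 × 1e6 counted reads in the untreated experiment and 18.6 to 42.8 × 1e6 in the treated one. Values are counts per 1e6 reads (CPM) scaled by TMM within an experiment. The 2 experiments were scaled apart and no test crosses them. Kmt2c averaged 19.8 to 50.9 CPM in the untreated wt groups and 6.86 to 16 CPM in the ko groups. For the treated HSC libraries the titles say HSC while the cell type entry says HPCs. The titles were followed, and summed HSC markers were 1996 to 3273 CPM in those libraries against 542 to 1404 CPM in treated HPC. One treated library, labelled HSC wt IL1 1, held 14 CPM of Kmt2c, within the range of the ko libraries. Markers followed the labels in the untreated wt libraries: the summed HSC markers ran from 3030 to 4004 CPM in HSC and from 52.3 to 70.6 CPM in GMP, and the summed GMP markers from 5236 to 6057 CPM in GMP and from 81.7 to 166 CPM in HSC.

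Replicate 4 of HSC, HPC and pGM stood apart in all 3 genotypes, and that of GMP did so for some genes. Its summed secondary granule and mature neutrophil genes reached 2455 to 2666 CPM in HSC, against 214 to 499 CPM in replicates 1 to 3, and Camp reached 183 to 211 CPM against 0.514 to 5.46 CPM. Erythroid genes moved with it, from 48 to 171 CPM in replicates 1 to 3 of HSC to 416 to 598 CPM in replicate 4. In GMP erythroid genes stood at 74.7 to 87.7 CPM in replicate 4, against 2.79 to 37.2 CPM in replicates 1 to 3. Ngp stood there at 139 to 212 CPM against 4.21 to 114 CPM. The summed secondary granule and mature neutrophil genes of GMP overlapped, at 2598 to 3280 CPM against 2167 to 3663 CPM, as did Camp. Results are therefore also given without replicate 4 of every group where that changes them. In the untreated experiment Y-linked genes summed to under 1 CPM only in replicates 1 and 4 of the ko groups, so sex was partly tied to genotype there. In treated HSC they did so in 3 of 4 ko and 1 of 4 wt libraries after PBS, and in 3 of 4 ko and 0 of 3 wt libraries after IL-1. In treated HPC they did so in 2 of 3 ko and 2 of 3 wt libraries after PBS, and in 2 of 3 ko and 1 of 3 wt libraries after IL-1. Sex was thus partly tied to genotype in treated HSC as well. Some libraries with Y-linked RNA also held Xist, an RNA of female cells. Y-linked RNA and Xist stood at 68.1 and 76.9 CPM in untreated wt HSC 3 and at 108 and 120 CPM in het HPC 2. They stood at 88.9 and 68.6 CPM in wt HSC 4 after PBS and at 103 and 82 CPM in wt HSC 2 after IL-1. The Y-linked sum alone thus did not give the sex of such libraries, and a mixture of animals in them was not tested.

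The granule quartet climbed from stem cell to GMP in steps of different sizes. Myeloperoxidase RNA was present at 275, 285, 390 and 979 CPM in the wt HSC libraries 1 to 4. It stood at 1647, 1538, 1871 and 1215 CPM in HPC, at 12974, 11461, 14917 and 16044 CPM in pGM, and at 69244, 94783, 81583 and 85986 CPM in GMP. Each population lay wholly above the one before, with the highest HSC library coming nearest to the HPC range. In edgeR's quasi-likelihood test Mpo rose by 1.70 ± 0.46 (log2 fold change ± SE) from HSC to HPC, by 3.14 ± 0.48 from HPC to pGM and by 2.58 ± 0.47 from pGM to GMP, with adjusted p of 0.00574, 1.72e-05 and 4.57e-05.

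In the untreated libraries elastase RNA made its large step last. Elane stood at 258, 185, 217 and 674 CPM in wt HSC, at 432, 342, 381 and 476 CPM in HPC, at 2504, 2348, 1997 and 3266 CPM in pGM and at 54011, 60907, 52976 and 51165 CPM in GMP. HSC and HPC overlapped through HSC replicate 4, whereas pGM and GMP were each clear of the population before. The change of 0.29 ± 0.54 from HSC to HPC did not pass the test (adjusted p 0.76). Elane then rose by 2.63 ± 0.57 into pGM (adjusted p 0.00159) and by 4.44 ± 0.62 into GMP (adjusted p 5.22e-07), which was the largest of the members' changes between wt pGM and GMP.

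Proteinase 3 RNA was already plentiful in stem cells. Prtn3 held 452, 459, 450 and 508 CPM in wt HSC, 546, 651, 618 and 674 CPM in HPC, 1656, 1628, 1956 and 1791 CPM in pGM and 8442, 8663, 8803 and 8083 CPM in GMP. Its libraries were the tightest of the quartet, and no population overlapped the next. It rose by 0.41 ± 0.13 into HPC (adjusted p 0.0157), by 1.50 ± 0.13 into pGM (adjusted p 2.43e-11) and by 2.27 ± 0.13 into GMP (adjusted p 7.73e-18). Without replicate 4 the first of these steps was 0.41 with an adjusted p of 0.0628.

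Cathepsin G RNA was scarce in stem cells. Ctsg stood at 18.4, 10.4, 20.2 and 52.4 CPM in wt HSC, at 71.3, 43.2, 54.2 and 46.5 CPM in HPC, at 530, 502, 674 and 703 CPM in pGM and at 3492, 3060, 3421 and 2710 CPM in GMP. The HSC library of replicate 4 lay inside the HPC range, and the other 3 lay below it. Ctsg changed by 1.08 ± 0.46 into HPC (adjusted p 0.0829). The step was 1.78 with an adjusted p of 0.00422 without replicate 4. It was 1.21 with an adjusted p of 0.0426 with genotype and replicate number together as a block. It rose by 3.48 ± 0.49 into pGM (adjusted p 3.52e-06) and by 2.40 ± 0.47 into GMP (adjusted p 0.000106).

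Igsf6 joined the quartet at the later steps. It held 2.23, 4.11, 5.94 and 14.1 CPM in wt HSC and 7.36, 3.48, 8.74 and 8.22 CPM in HPC, ranges that overlapped. It then stood at 59.6, 60.2, 78.6 and 88.3 CPM in pGM and at 442, 608, 545 and 607 CPM in GMP. Igsf6 rose by 3.36 ± 0.55 into pGM (adjusted p 4.64e-05) and by 2.94 ± 0.53 into GMP (adjusted p 3.38e-05).

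**Figure D1:**
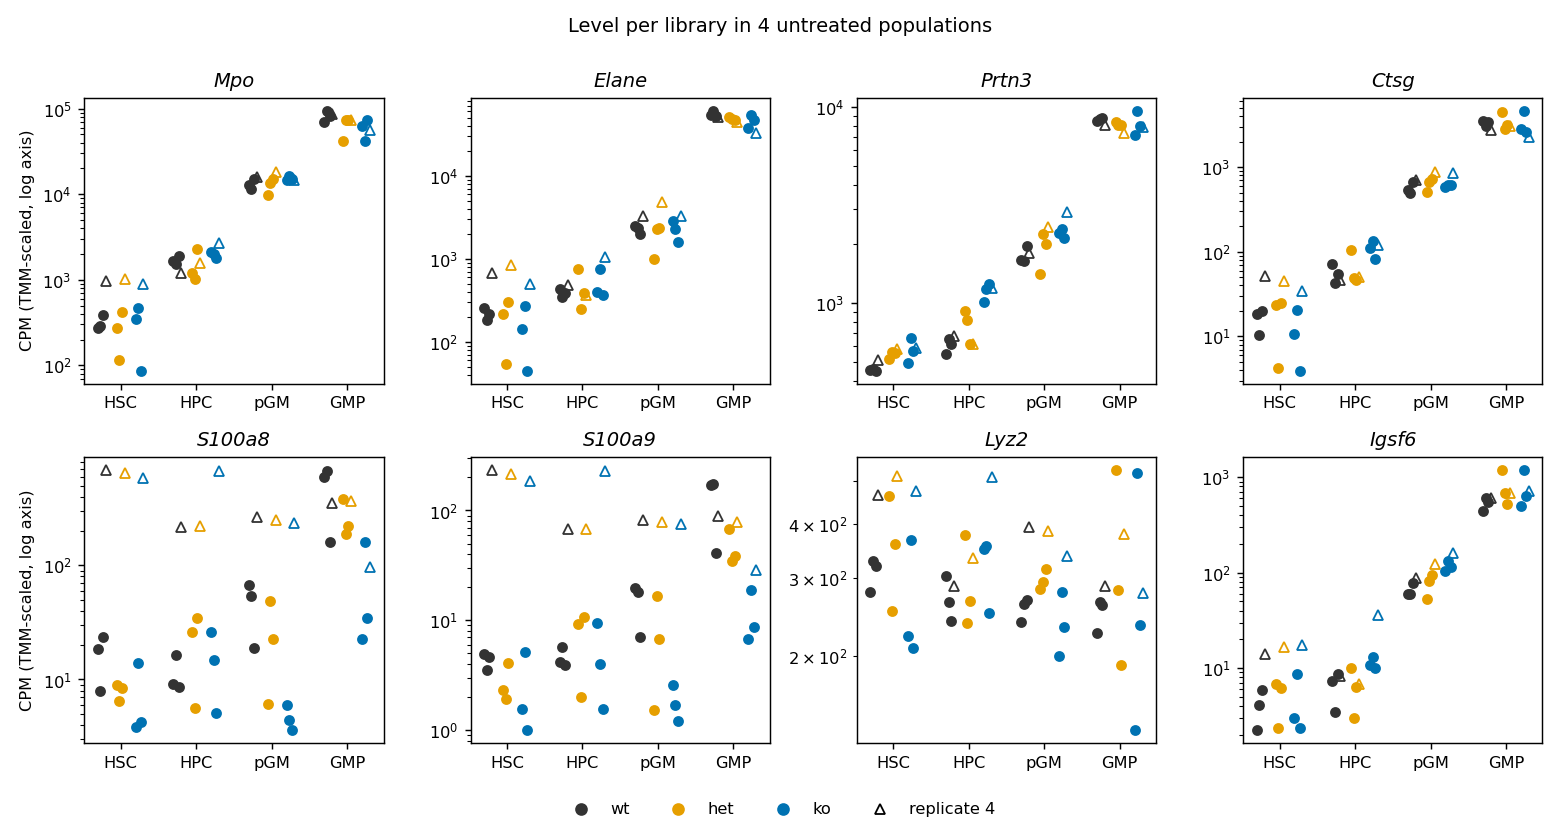
Level of each member in the 48 untreated libraries, as TMM-scaled CPM on a log axis, by population on the x axis and by genotype in colour. Each mark is 1 library and open triangles are replicate 4. Mpo, Elane, Prtn3, Ctsg and Igsf6 climb toward GMP, S100a8 and S100a9 are highest in replicate 4 of the earlier populations, and Lyz2 stays between 135 and 529 CPM.

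Counted together, 2 of 8 members rose from wt HSC to HPC, where 22.8% of all genes tested changed and 12.5% rose. From HPC to pGM 5 of 8 rose, against 12% changed and 5.59% risen. From pGM to GMP 5 of 8 rose, against 29.0% changed and 11% risen. The median log2 change of the members was 0.18, 2.07 and 2.34 over the successive steps, and that of all genes was -0.02, 0.00 and -0.11. The members whose groups did not overlap were the same ones that rose at each step, namely Mpo and Prtn3, then the quartet with Igsf6 at both later steps. Groups failed to overlap for 27.3%, 22.2% and 34.2% of all genes. In bulk libraries such as these, fewer cells of a type and less RNA per cell cannot be told apart.

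S100a8 and S100a9 did not follow the quartet. In wt libraries S100a8 stood at 18.4, 7.99, 23.4 and 681 CPM in HSC, at 9.1, 16.3, 8.63 and 215 CPM in HPC, at 67, 54.3, 19 and 268 CPM in pGM and at 591, 670.4, 160.2 and 355 CPM in GMP. The fourth library was the highest by far in each population before GMP, and in GMP it lay inside the range of the others. S100a9 ran alongside at 4.9, 3.54, 4.61 and 232 CPM in HSC and at 172, 173, 40.9 and 89.7 CPM in GMP. From pGM to GMP the changes of 2.12 ± 1.73 for S100a8 and 1.91 ± 1.67 for S100a9 did not pass the test (adjusted p 0.385 and 0.422). Without replicate 4 of every group they were 3.34 and 3.10, with adjusted p of 0.00347 and 0.00128, and 7 of 8 members then rose at this step. With genotype and replicate number together as a block 7 of 8 also rose, S100a8 by 3.11 and S100a9 by 2.85 (adjusted p 0.0192 and 0.0218). The share of all genes that rose in these alternative fits is not given, so the counts of 7 have no background beside them.

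In replicate 4 of HSC the level of S100a8 was 584 to 681 CPM over the 3 genotypes, against 3.83 to 23.4 CPM in replicates 1 to 3. Camp, which encodes a secondary granule peptide, and Ngp, neutrophilic granule protein, moved with it, and Ngp reached 1107 to 1209 CPM against 1.94 to 47.5 CPM. The ratio of S100a8 to S100a9 counts lay between 2.93 and 3.17 in those 3 libraries and between 2.07 and 5.08 in replicates 1 to 3 of HSC. It thus did not set replicate 4 of HSC apart from the other HSC libraries. In GMP the ratio lay between 3.32 and 8.54, above its range in replicate 4 of HSC. The primary granule genes differed less. Mpo stood at 884 to 1009.8 CPM in replicate 4 of HSC against 86.4 to 474 CPM in the others, Elane at 490.4 to 833 CPM against 44.7 to 299 CPM, and Prtn3 at 508 to 587 CPM against 449.9 to 662 CPM. The part of mature neutrophil RNA in these values was not tested.

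**Figure D2:**
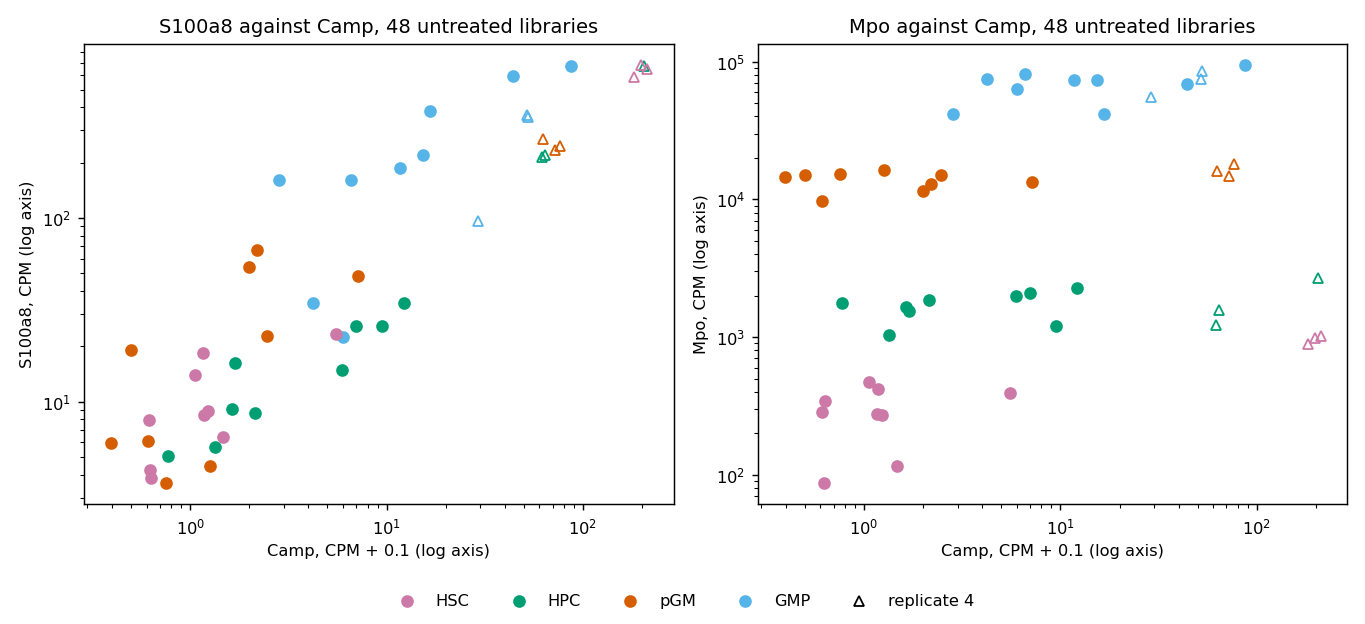
S100a8 (left) and Mpo (right) against the secondary granule gene Camp, in CPM on log axes (0.1 added to Camp), with 1 mark for each of 48 untreated libraries, coloured by population. Open triangles are replicate 4, where Camp reached 183 to 211 CPM in HSC: S100a8 follows Camp across populations, while Mpo follows the population.

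Across the 48 untreated libraries the genes whose log2 levels were most like that of S100a9 were S100a8 (Pearson r 0.99), Camp (0.93), Chil3 (0.91), Cd177 (0.89) and Lcn2 (0.89), all but S100a8 being genes of later granules or the mature neutrophil list. Those most like Mpo were Ctsg (0.99), Tifab (0.99), Anxa3 (0.99), Slpi (0.98) and Atp8b4 (0.98). The points share libraries, population and scaling, so these values describe the pattern only.

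Lyz2 was flat. In wt libraries it ran from 279 to 464 CPM in HSC, from 239 to 303 CPM in HPC, from 238 to 394 CPM in pGM and from 225 to 288 CPM in GMP. No step passed the test, with changes of -0.34 ± 0.28, 0.09 ± 0.28 and -0.16 ± 0.28 (adjusted p 0.421, 0.89 and 0.715). Replicate 4 gave the highest wt value in every population but HPC.

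Levels of different genes were compared per kilobase of exon. In wt HSC the order of the mean was Elane (339 CPM per kb), Prtn3 (269.8), Lyz2 (264), S100a8 (263), Mpo (141), S100a9 (118), Ctsg (24.5) and Igsf6 (3.03), with Prtn3, Lyz2 and S100a8 next to each other. That order rested on replicate 4. Without it Prtn3 led at 262 CPM per kb, followed by Lyz2 at 235, Elane at 223, Mpo at 92.5 and S100a8 at 23.9. In HPC Mpo led at 458 CPM per kb, followed by Elane at 414 and Prtn3 at 359. In pGM Mpo stood at 4045 and Elane at 2569.8 CPM per kb. In GMP the order at the top turned, with Elane at 55655, Mpo at 24211, Prtn3 at 4906 and Ctsg at 3069 CPM per kb, ahead of S100a8 (640.1), Igsf6 (253), S100a9 (228) and Lyz2 (197). Without replicate 4 the first 5 places in GMP were the same and Igsf6 (244) and S100a9 (246) changed places. The 8 genes together took 11 to 12.8% of all counted reads in wt GMP and 0.146 to 0.165% in the wt HSC libraries other than replicate 4.

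Other genes of the granule pathway were counted from lists chosen with earlier results of these data known. Of 22 genes for further azurophil contents and for the proteins that activate, pack or carry them, 2 rose and 6 fell from wt HSC to HPC, 7 rose and none fell from HPC to pGM, and 13 rose and 1 fell from pGM to GMP. The list's median log2 change was 0.12, 0.24 and 0.77, beside -0.02, 0.00 and -0.11 for all genes. Prss57, a serine protease of the azurophil granule that lies beside Elane and Prtn3, rose by 2.29 ± 0.17 into HPC (adjusted p 1.69e-14) and by 2.69 ± 0.17 from pGM to GMP (adjusted p 6.57e-17). Rab44, a large Rab GTPase, rose by 3.39 ± 0.42 into pGM (adjusted p 2.06e-07), and Ctsh, which encodes the cysteine protease cathepsin H, rose by 2.04 ± 0.22 into GMP (adjusted p 2.8e-10). Cd63, a membrane protein of azurophil granules, fell by 1.06 on the log2 scale from HSC to HPC (adjusted p 0.000417).

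Protease inhibitors split. Of 16 listed genes 9 were tested, and 3 rose and 3 fell into HPC, 1 rose and 2 fell into pGM, and 2 rose and 4 fell into GMP. Slpi, an inhibitor of elastase and cathepsin G, rose by 3.23 ± 0.59 into pGM (adjusted p 0.000177) and was one of the 5 genes most like Mpo. Serpinb1a, which inhibits the neutrophil serine proteases inside the cell, rose by 2.27 ± 0.22 into HPC and by 0.97 ± 0.21 into GMP (adjusted p 3.49e-11 and 0.000307). Wfdc17, a small secreted inhibitor-like protein, rose by 5.94 ± 0.39 into HPC and then fell by 2.00 into pGM and by 5.32 into GMP (adjusted p 7.32e-16, 1.93e-05 and 1.88e-14).

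Among 18 regulators of granule genes, 3 rose and 4 fell into HPC, 5 rose and 2 fell into pGM, and 5 rose and 5 fell into GMP. Cebpa, which starts the granulocyte programme, rose by 3.16 ± 0.43 into HPC (adjusted p 2.67e-07), and Irf8, a factor of the monocyte branch, rose by 2.91 ± 0.38 into pGM (adjusted p 5.85e-07). Cebpe, needed for secondary granules, rose by 3.58 ± 0.65 into GMP (adjusted p 3.65e-05), and Gata2 fell by 2.42 there (adjusted p 2.3e-13). Of 25 secondary granule and mature neutrophil genes 24 were tested, and 1, 2 and 4 rose over the successive steps while 0, 1 and 1 fell. Monocyte and macrophage genes moved with the members: of 19 listed, 5, 10 and 6 rose and 1, 0 and 3 fell, and their summed level in wt libraries was 122 to 280 CPM in HSC, 300 to 396 CPM in HPC, 1049 to 1528 CPM in pGM and 4990 to 5365 CPM in GMP. Their part in the level of Lyz2 or Igsf6 was not tested.

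Genes beside the members in the genome did not move as a block. Of 28 neighbours and close relatives 18 were tested, and 6 rose and 1 fell into HPC, 2 rose and 2 fell into pGM, and 5 rose and 4 fell into GMP. Near S100a8 and S100a9 on chromosome 3, S100a6 fell at all 3 steps, by 1.06 into pGM and 1.00 into GMP on the log2 scale (adjusted p 0.00238 and 0.00169), while S100a11 rose by 1.51 ± 0.15 into GMP (adjusted p 5.77e-11).

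The next comparisons ask which members differed with Kmt2c genotype within a population. In HPC the ko libraries held more Prtn3. It stood at 546, 651, 618 and 674 CPM in wt, at 903, 818, 615 and 617 CPM in het and at 1009, 1179, 1241 and 1195 CPM in ko libraries 1 to 4. Every ko library lay above every wt and every het library, and het spanned a range from the wt level to well above it. Prtn3 was 0.89 ± 0.15 higher in ko than in wt on the log2 scale (adjusted p 0.00559). It was the one member of 8 that passed the test, where 1.1% of all genes tested changed and 0.249% rose. Without replicate 4 of every group the difference was 0.91 with an adjusted p of 0.0746, and over all 15 alternatives the adjusted p ran from 8.51e-06 to 0.0746.

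Ctsg and Igsf6 also separated ko from wt HPC without passing the test. Ctsg stood at 71.3, 43.2, 54.2 and 46.5 CPM in wt, at 104, 48.6, 46.6 and 50.1 CPM in het and at 110, 136, 81.2 and 119 CPM in ko. The lowest ko library lay above every wt library but below the first het library. Its difference from wt was 1.05 ± 0.25 with an adjusted p of 0.0543, and it passed without the filter on low counts, by DESeq2 and with replicate number as a block (the range of adjusted p over 15 alternatives was 0.00413 to 0.405). Igsf6 stood at 7.36, 3.48, 8.74 and 8.22 CPM in wt and at 10.7, 13, 10.1 and 35.6 CPM in ko, a difference of 1.3 ± 0.43 (adjusted p 0.257) in which the fourth ko library was far above the rest. The 3 genes whose ko and wt groups did not overlap compare with 6.95% of all genes. All 8 members had a positive difference, with a median of 0.97 beside 0.02 for all genes. For S100a8 and S100a9 the differences of 1.51 ± 1.79 and 1.56 ± 1.74 rested on replicate 4, where S100a8 held 672 CPM in ko and 215 CPM in wt. Ko replicate 4 was also the highest HPC library for Mpo (2678 CPM), Elane (1056 CPM) and Lyz2 (512 CPM).

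Against het, which shares the Cre, no member passed in HPC, where 0.196% of all genes did. By edgeR 4 of 8 were at an unadjusted p under 0.05, and DESeq2 called 1. The share of all genes at an unadjusted p under 0.05 or called by DESeq2 is not given, here or below. Such counts of members therefore have no background to be read against. Prtn3 was 0.63 ± 0.15 higher in ko (adjusted p 0.16) and its groups did not overlap, nor did those of Igsf6 (1.39 ± 0.43, adjusted p 0.371), against 3.00% of all genes. Leaving out the first het library, the highest of its group for Prtn3 and Ctsg, brought the adjusted p to 0.00936 for Prtn3 and 0.0169 for Ctsg.

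Few other genes of the pathway differed in ko HPC. None of the 21 azurophil genes tested passed against wt by edgeR, with a median of 0.04 beside 0.02 for all genes. Wfdc17 was 1.25 ± 0.28 higher (adjusted p 0.0372), the 1 inhibitor of 9 tested. Anxa1, an anti-inflammatory annexin of mature neutrophils, differed by -0.84 ± 0.16 (adjusted p 0.0139), lower in ko. Of 19 monocyte genes 2 were higher, Cd68 by 0.82 ± 0.17 and Ly86 by 1.47 ± 0.33 (adjusted p 0.0197 and 0.0374), and the summed monocyte list moved with Prtn3, from 300 to 396 CPM in wt to 484 to 623 CPM in ko. Its part in the difference was not tested.

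In pGM no member passed between ko and wt, where 1.94% of all genes did. edgeR placed 2 of 8 at an unadjusted p under 0.05, Prtn3 and Igsf6, and DESeq2 called 1. Igsf6 stood at 59.6, 60.2, 78.6 and 88.3 CPM in wt, at 53.4, 81.7, 94.4 and 124 CPM in het and at 105, 133, 114 and 159.7 CPM in ko. Its ko libraries lay above all wt libraries and the het libraries spanned both, a difference of 0.85 ± 0.21 with an adjusted p of 0.0535. That p was 0.0372 without replicate 4, and it ran from 0.00225 to 0.953 over 15 alternatives. Prtn3 stood at 1656, 1628, 1956 and 1791 CPM in wt and at 2266, 2384, 2129 and 2914 CPM in ko, again without overlap, a difference of 0.47 ± 0.14 (adjusted p 0.114). These 2 members without overlap compare with 6.24% of all genes. Mpo, Elane and Ctsg differed by 0.14 ± 0.14, -0.01 ± 0.42 and 0.16 ± 0.16 (adjusted p 0.924, 1.00 and 0.928). Csf1r, the receptor for macrophage colony-stimulating factor, was 0.68 ± 0.16 higher in ko pGM (adjusted p 0.0406), and the summed monocyte list stood at 1613 to 2355 CPM in ko against 1049 to 1528 CPM in wt.

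In GMP the member called was S100a9, which was lower in ko. S100a9 stood at 172, 173, 40.9 and 89.7 CPM in wt, at 67.8, 35, 38.9 and 79.1 CPM in het and at 6.73, 18.8, 8.77 and 28.9 CPM in ko. All ko libraries lay below all het and wt libraries, and the wt libraries themselves spread widely. S100a9 differed by -2.91 ± 0.52 on the log2 scale (adjusted p 0.0265), the 1 member of 8 called, where 0.555% of all genes changed and 0.356% fell. Its groups did not overlap, as for 6.91% of all genes. The call ended under 10 of 16 alternatives. It was lost without ko library 1, 2 or 3, without wt library 1 or 2, without replicate 4 of every group (adjusted p 0.0603), without a filter on low counts, with a term for Y-linked expression, in a fit over all libraries of the experiment and without GMP het 1 and GMP ko 2, and the adjusted p ran up to 0.561.

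S100a8 moved beside it, at 591, 670.4, 160.2 and 355 CPM in wt, 381, 187, 220 and 365 CPM in het and 22.5, 161, 34.4 and 96 CPM in ko. The second ko library sat just above the third wt library, which was the only overlap. The difference of -2.49 ± 0.61 gave an adjusted p of 0.14 by edgeR, and DESeq2 called it. Against het the ko libraries did not overlap for either gene, as for 2.68% of all genes, with differences of -1.87 ± 0.60 for S100a8 and -1.80 ± 0.50 for S100a9 that did not pass (adjusted p 0.73 and 0.51). The summed list of secondary granule and mature neutrophil genes was 2806 to 3663 CPM in wt and 2167 to 2923 CPM in ko, ranges that overlapped. Camp averaged 47.5 ± 33.2 CPM in wt and 10.4 ± 12.4 CPM in ko (mean ± SD, n = 4). The genotypes overlapped for Camp, Ngp, Ltf, Lcn2, Chil3, Retnlg and Mmp8. Retnlg went the other way in its highest libraries, at 5.8 CPM in wt and 8.42 CPM in ko. None of 17 genes tested from that list passed. Their part in the difference was not tested.

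Mpo, Elane, Prtn3 and Ctsg showed no called difference by genotype in GMP. Mpo stood at 69244, 94783, 81583 and 85986 CPM in wt, at 41582, 73183, 74190 and 74460 CPM in het and at 63491, 41438, 74483 and 55732 CPM in ko. Of the 4 ko libraries 3 lay below the wt range and 1 inside it, a difference of -0.49 ± 0.21 (adjusted p 0.476). Elane differed by -0.35 ± 0.16 (adjusted p 0.525), Prtn3 by -0.05 ± 0.13 (adjusted p 0.929) and Ctsg by -0.03 ± 0.22 (adjusted p 0.979). Slpi, the inhibitor of elastase and cathepsin G, fell by 1.17 on the log2 scale in ko GMP (adjusted p 0.0283), from 799 ± 131 CPM in wt to 355 ± 90.4 CPM in ko (mean ± SD, n = 4).

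The test of the change in effect itself was made for GMP against HPC. The ko effect on Prtn3 in GMP relative to HPC was -0.95 ± 0.18 on the log2 scale (adjusted p 0.00592). It was the 1 member of 8 called, where 0.205% of all genes were and 0.0662% were lower. Without replicate 4 the adjusted p was 0.0762. All 8 members had a negative value, with a median of -0.99 beside 0.01 for all genes. Ko replicate 4 was the highest HPC library for Mpo, Elane, S100a8, S100a9, Lyz2 and Igsf6. It held 2892 CPM of summed secondary granule and mature neutrophil genes, the most of any HPC library. Ctsz, a cysteine protease of the azurophil list, also differed in effect, by -0.996 ± 0.231 (adjusted p 0.0457), the 1 of 22 called. For GMP against pGM no member's effect differed by edgeR or DESeq2, where 0.0927% of all genes did, and Prtn3 was the 1 at an unadjusted p under 0.05 (-0.52 ± 0.18, adjusted p 0.465). Prtn3 in ko HPC, at 1009 to 1241 CPM, stayed below its level in wt pGM, at 1628 to 1956 CPM.

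**Figure D3:**
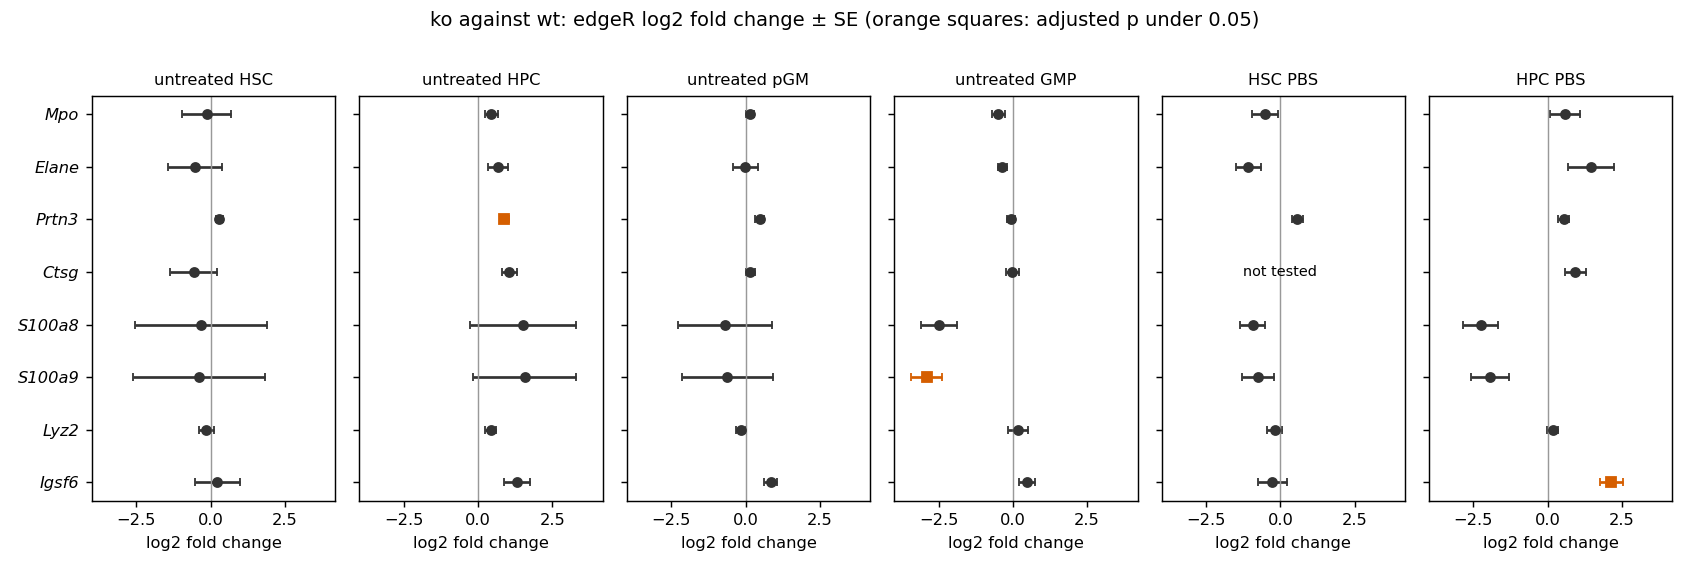
Log2 fold change of each member in ko against wt, with its standard error, in 6 comparisons: untreated HSC, HPC, pGM and GMP and PBS-treated HSC and HPC. Orange squares passed an adjusted p of 0.05: Prtn3 in untreated HPC (0.89), S100a9 in untreated GMP (-2.91) and Igsf6 in HPC after PBS (2.14).

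In untreated HSC no member passed between ko and wt, where 1.78% of all genes did. edgeR placed 1 of 8 at an unadjusted p under 0.05 and DESeq2 called 0. That gene was Prtn3, at 452, 459, 450 and 508 CPM in wt, 518, 558, 553 and 578 CPM in het and 492, 662, 570 and 587 CPM in ko. Het lay wholly above wt, where 3.41% of all genes did not overlap, while ko overlapped wt at its lowest library. The differences were 0.23 for het and 0.29 ± 0.12 for ko (adjusted p 0.807 and 0.37). Between het and wt no member was called by edgeR or DESeq2 in any of the 4 populations, where edgeR called 0.00724% of all genes in HSC, 0.00753% in HPC, 0.0155% in pGM and 0.00828% in GMP. Groups overlapped for every member between het and wt in HPC, pGM and GMP, where 2.44%, 4.49% and 2.37% of all genes did not, and in HSC between ko and wt and between ko and het, where 7.40% and 3.77% did not. By edgeR 1 of these values was at an unadjusted p under 0.05, S100a9 in GMP at -1.11 ± 0.49 (adjusted p 0.973). Between ko and het 0 members were called by either tool in HSC, pGM and GMP, where edgeR called 0.326%, 0.564% and 0.0166% of all genes (with no member free of overlap in pGM, against 4.44%) and placed 0, 1 and 2 members at an unadjusted p under 0.05.

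Related genes did differ in the stem cells and in pGM. In ko HSC Serpinb1a, the intracellular inhibitor of neutrophil serine proteases, was lower than in wt by -1.71 ± 0.21 on the log2 scale, and in ko pGM by -0.58 ± 0.09 (adjusted p 0.000196 and 0.00101). Anxa1 differed by -0.87 ± 0.19 in ko HSC and by -0.72 ± 0.10 in ko pGM (adjusted p 0.024 and 0.000419). None of the 22 azurophil genes tested passed in HSC, and 1 of 21, Npc2, was higher in ko pGM (0.39 ± 0.09, adjusted p 0.0331).

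GMP het 1 and GMP ko 2 were close to each other for some members and not for others. Mpo held 41438 and 41582 CPM in them and 55732 to 94783 CPM in the other 10 GMP libraries. Igsf6 ran the other way, at 1182 and 1183 CPM against 442 to 722 CPM, as did Lyz2 at 522 and 529 CPM against 135 to 379 CPM and Ctsg at 4458 CPM and above against 2264 to 3492 CPM. Both libraries thus lay outside the range of the rest for 4 members, with Mpo low and the other 3 high. Elane, at 51567 and 53413 CPM, and Prtn3, at 8389 and 9559 CPM, were within or just above the range of the others. S100a8 and S100a9 separated the pair, at 381 and 67.8 CPM in GMP het 1 and 161 and 18.8 CPM in GMP ko 2, the highest S100a8 of each genotype and, for S100a9, inside the range of the other libraries of that genotype. Over the 12 GMP libraries the genes most like Mpo were Tmbim6 (r 0.99), Nars (0.98), Gpi1 (0.98), Atp6v0a1 (0.98) and Slc35a4 (0.97), which was a different company from the one across populations. Tmbim6, which encodes an endoplasmic reticulum protein, held 1860.4 and 2079 CPM in the pair against 2647 to 4219.9 CPM in the rest. Without the pair Elane was called lower in ko GMP (adjusted p 0.0391) and S100a9 was no longer called.

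**Figure D4:**
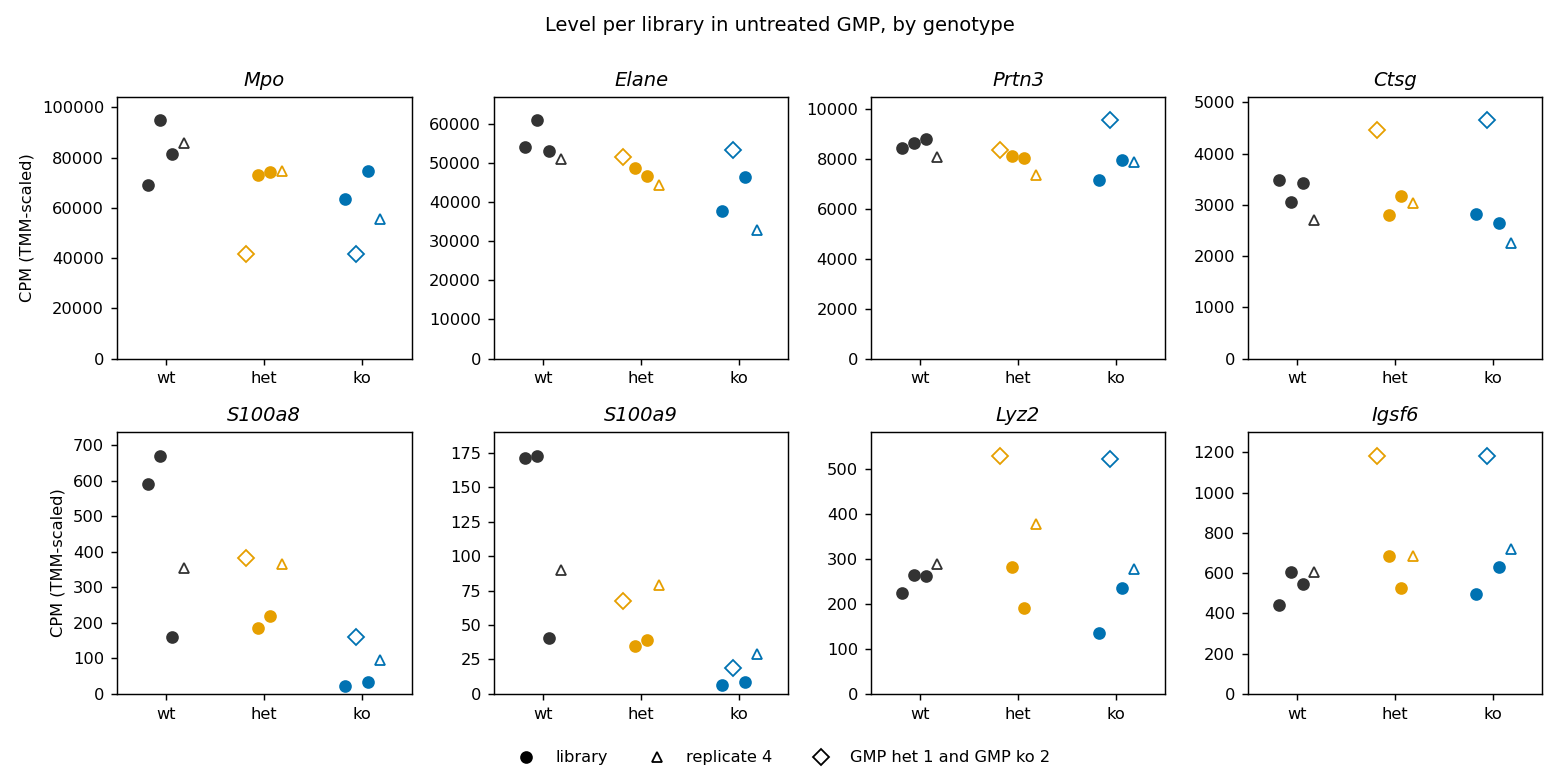
Level of each member in the 12 untreated GMP libraries, as TMM-scaled CPM on a linear axis from 0, by genotype on the x axis. Each mark is 1 library; open diamonds are GMP het 1 and GMP ko 2, where Mpo is at 41438 and 41582 CPM and Igsf6 at 1182 and 1183 CPM, and open triangles are replicate 4.

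Over the same 12 libraries the genes most like S100a9 were Gng12 (r 0.98), S100a8 (0.96), Mgl2 (0.95), Arap2 (0.95) and Tep1 (0.88). The libraries share genotype groups and scaling.

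The second experiment asked how the members answered IL-1, which drives blood precursors toward myeloid cells. After PBS Mpo, Elane and Ctsg were higher in wt HPC than in wt HSC. Mpo stood at 9.61, 6.39, 13.1 and 2.78 CPM in HSC and at 851, 508 and 887 CPM in HPC, a rise of 6.55 ± 0.56 (adjusted p 6.33e-09). Elane stood at 1.01, 1.4, 1.42 and 1.16 CPM in HSC and at 58.2, 29.6 and 54.9 CPM in HPC, a rise of 5.25 ± 0.58 (adjusted p 4.18e-07). Ctsg ran from 0 to 0.723 CPM in HSC and stood at 24.7, 9.36 and 15.2 CPM in HPC, a rise of 6.52 ± 0.78 (adjusted p 3.68e-06). Prtn3, at 333, 347, 295 and 384 CPM in HSC and 427, 273 and 416 CPM in HPC, did not separate the populations (0.13 ± 0.18, adjusted p 0.72). The fitted rise of Ctsg depends on a group near 0 and reached 10.17 under the alternatives. These 3 calls of 8 compare with 13.8% of all genes changed and 6.46% risen, and 4 members did not overlap, Mpo, Elane, Ctsg and Lyz2, against 23.9%. Untreated wt HSC averaged 482 CPM of Mpo, 333 CPM of Elane and 25.3 CPM of Ctsg. After PBS wt HSC averaged 7.97, 1.25 and 0.189 CPM. The step from HSC to HPC was thus larger here for these 3 genes than in the untreated libraries. The experiments were scaled apart, and the cause of the gap was not tested.

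In wt HPC IL-1 raised Igsf6. It stood at 2.65, 1.34 and 2.45 CPM after PBS and at 15.7, 24.4 and 25.8 CPM after IL-1. The groups were far apart, and the rise was 3.35 ± 0.41 on the log2 scale (adjusted p 0.00077). It was the 1 member of 8 called, where 0.947% of all genes changed and 0.702% rose, and it kept its call under all 12 alternatives. Ctsg, at 24.7, 9.36 and 15.2 CPM after PBS and 31.7, 33.6 and 57 CPM after IL-1, did not overlap either, as for 14.0% of all genes. Its difference of 1.31 ± 0.36 did not pass by edgeR (adjusted p 0.126) and was called by DESeq2. Mpo, at 851, 508 and 887 CPM after PBS and 216, 543 and 869 CPM after IL-1, differed by -0.46 ± 0.50 (adjusted p 0.858), with 1 low library after IL-1.

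Monocyte genes moved with Igsf6. Of 19 listed, 8 rose in wt HPC and none fell, among them Ms4a6c by 2.30 ± 0.24, Mpeg1, which encodes the pore protein perforin-2, by 1.96 ± 0.20, and the fractalkine receptor Cx3cr1 by 2.14 ± 0.24 (adjusted p 0.000252, 0.000252 and 0.000477). Their summed level went from 311 to 344 CPM after PBS to 914 to 967 CPM after IL-1. Of 22 azurophil genes 3 rose, Ctsh by 2.18 ± 0.28, Ms4a3 by 2.51 ± 0.35 and Ctsz by 1.19 ± 0.25 (adjusted p 0.00108, 0.00222 and 0.0319). Cybb, a subunit of the neutrophil and macrophage NADPH oxidase, rose by 2.78 ± 0.36 (adjusted p 0.00124), the 1 call of 18 tested in the mature neutrophil list. The part of a shift among cell types in the rise of Igsf6 was not tested.

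In ko HPC Igsf6 stood at 11.6, 4.83 and 12.2 CPM after PBS and at 23.9, 21.6 and 41 CPM after IL-1. The groups did not overlap, nor did those of S100a8, as for 13.4% of all genes. The difference of 1.60 ± 0.37 did not pass (adjusted p 0.105). No member passed, where 0.433% of all genes did, edgeR placed 2 of 8 at an unadjusted p under 0.05, and DESeq2 called 1, Igsf6. The IL-1 effect on Igsf6 was -1.75 ± 0.53 in ko relative to wt, and that difference did not pass (adjusted p 1.00). No member and no gene passed that test by edgeR, 1 member was at an unadjusted p under 0.05, and DESeq2 called 0 members. Of the 19 monocyte genes 5 rose in ko HPC, Ly86 by 2.76 ± 0.37 and Cx3cr1 by 2.07 ± 0.24 among them (adjusted p 0.00358 and 0.00239), and none of the 22 azurophil genes did.

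After PBS Igsf6 was already higher in ko HPC than in wt, by 2.14 ± 0.39 (adjusted p 0.0404). It was the 1 member of 8 called, where 0.257% of all genes changed and 0.0878% rose. The call was lost under 7 of 12 alternatives, namely without any single wt library, without ko library 1 or 3, with a term for Y-linked expression and in a fit over all libraries, and the adjusted p ran up to 0.218. After IL-1 the genotypes overlapped for every member, none passed by edgeR or DESeq2, and 1 of 8, S100a9, was at an unadjusted p under 0.05. There 0.201% of all genes were called and 9.61% did not overlap.

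The proteases were also compared between genotypes in these PBS-treated HPC, which are other libraries than the untreated ones. Prtn3 stood at 427, 273 and 416 CPM in wt and at 615, 484 and 534 CPM in ko, a difference of 0.54 ± 0.18 (adjusted p 0.368). Ctsg stood at 24.7, 9.36 and 15.2 CPM in wt and at 32.8, 25.3 and 36.3 CPM in ko (0.93 ± 0.36, adjusted p 0.447), and Elane at 58.2, 29.6 and 54.9 CPM in wt and 198, 60.6 and 133 CPM in ko (1.45 ± 0.78, adjusted p 0.628). Every ko library lay above every wt library for these 3 genes, though none passed. S100a8 went the other way, at 28.5, 11.1 and 6.56 CPM in wt and 4.38, 2.76 and 2.58 CPM in ko, a difference of -2.26 ± 0.60 (adjusted p 0.2 by edgeR, called by DESeq2). The neutrophil gene Ngp was also lower in ko, at 3.35 to 26.7 CPM in wt and 1.66 to 2.61 CPM in ko. So was Ltf, at 0.587 to 8.3 CPM in wt and 0.164 to 0.18 CPM in ko. Camp, Lcn2, Chil3, Retnlg and Mmp8 overlapped between the genotypes. The part of these genes in the difference was not tested. In all, 7 of 8 members did not overlap between the genotypes, Lyz2 being the exception, where 14.7% of all genes did not.

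In wt HSC Prtn3 stood at 333, 347, 295 and 384 CPM after PBS and at 532, 594 and 682 CPM after IL-1. The 532 CPM belong to the library labelled HSC wt IL1 1, whose Kmt2c was within the ko range, and lie inside the range of Prtn3 in ko HSC after IL-1. The groups did not overlap, as for 9.65% of all genes, and the difference of 0.86 ± 0.19 did not pass by edgeR (adjusted p 0.084). DESeq2, a replicate block and a fit over all libraries of the experiment each called it, and the adjusted p ran from 0.00268 to 0.308. No member of 7 tested passed, where 0.200% of all genes did, and 2 were at an unadjusted p under 0.05, Mpo and Prtn3. In ko HSC Prtn3 stood at 489, 496, 404 and 629.7 CPM after PBS and at 469, 550, 513 and 596 CPM after IL-1, with full overlap and a difference of 0.07 ± 0.18 (adjusted p 0.916). The IL-1 effect on Prtn3 differed between ko and wt HSC by -0.79 ± 0.27, which did not pass (adjusted p 0.847). No gene passed that test by edgeR, Prtn3 was the 1 member at an unadjusted p under 0.05, and DESeq2 called 0 members. After PBS the ko libraries held more Prtn3 than wt without overlap, as for 6.36% of all genes, by 0.57 ± 0.18 (adjusted p 0.199 by edgeR, called by DESeq2).

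In wt HSC after IL-1 the azurophil gene Ms4a3 rose by 3.10 ± 0.49 and Wfdc17 by 4.39 ± 0.39 (adjusted p 0.00826 and 1.81e-05). These rises include the library labelled HSC wt IL1 1, with Kmt2c in the ko range, and are not given without it. Wfdc17 was itself higher in ko than in wt HSC after PBS, by 1.52 ± 0.35 (adjusted p 0.0449). In ko HSC no member of 7 passed after IL-1, where 0.212% of all genes did, 3 were at an unadjusted p under 0.05, and DESeq2 called 0. Elane was the 1 member without overlap there, at 0.294, 0.602, 0.446 and 0.988 CPM after PBS and 1.73, 1.02, 1.31 and 1.93 CPM after IL-1, against 4.57% of all genes (1.35 ± 0.43, adjusted p 0.315). Between ko and wt HSC no member passed after PBS by edgeR, where 0.798% of all genes did, 3 were at an unadjusted p under 0.05, and DESeq2 called 1. After IL-1 no member and no gene passed by edgeR (0% called), 1 member was at an unadjusted p under 0.05, and DESeq2 called 0. Lyz2 was the 1 member without overlap there, against 9.01% of all genes. S100a8 stood at 4.02, 18.9 and 12.7 CPM in wt and 6.02, 3.21, 1.8 and 5.23 CPM in ko (-1.58 ± 0.45, adjusted p 0.302). Without the library labelled HSC wt IL1 1, which holds the lowest of those wt values, its adjusted p was 0.0185. Ctsg fell under the filter on low counts in the HSC fits and was not tested. The comparison of the wt IL-1 effect in HPC with that in HSC called no member by either tool, where 0.0228% of all genes were, 1 was at an unadjusted p under 0.05, and the difference for Igsf6 was 2.35 ± 0.70 (adjusted p 0.549).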

How the data were processed

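RNA was extracted with Qiagen RNAeasy micro plus kits and made into libraries with a Clontech SMARTer kit, per the labels' protocols. The authors deposited whole-number read counts per gene in 2 tables, 1 for each experiment, made with STAR 3.0.4 and featureCounts 1.4.5, per the submitters' processing notes. The build, annotation and strand setting used were not given in the sources used here. Counts of overlapping and antisense genes may thus be mixed. Of 41388 mouse gene identifiers 40340 were found in GENCODE M21, used for names, positions and exon lengths, and the others held 0.143% and 0.113% of reads. The untreated experiment's counts held 3 entries for sequences that are not mouse genes, which were left out.

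Samples were grouped by their labels into 20 groups. Each of 29 comparisons was fitted on all genes with edgeR 4.0.16 in R 4.3.3 (quasi-likelihood test, robust, TMM scaling, minimum count 10, minimum total 15). Benjamini-Hochberg adjusted p under 0.05 made a call. Log2 fold changes are given ± SE. Genotype and treatment comparisons were fitted within a population. Steps between populations, and differences of an effect between populations, were fitted over all libraries of the experiment. The spread behind the wt steps thus also came from the other genotypes. Alternatives were RLE scaling, no filter, DESeq2 1.42.0, a replicate block, a term for Y-linked expression, a fit over all libraries of an experiment, and leaving out libraries. Within a population the block was the replicate number. For comparisons between populations it joined libraries of the same treatment, genotype and number, a link that the labels do not state. There a fit on only the groups compared took the place of the fit over all libraries. Leaving out replicate 4 of every group was added after seeing the data. The scripts were tested on simulated data.

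Total counts were 13.3 to 20.8 × 1e6 (untreated) and 18.6 to 42.8 × 1e6 (treated) per library, so members under about 1 CPM rest on few reads. Named genes were the 8 members, at most the 4 genes of smallest p per list and comparison, and the 5 genes most like Mpo or S100a9 by Pearson r of log2(CPM + 1). The members and lists were chosen with earlier results of these data known. Same-numbered libraries deviated together in every pair in 1 comparison, ko against wt HPC after IL-1 (r 0.16 to 0.37 over 3 pairs), where the block changed no member's call.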

Additional observations from a re-analysis of the deposited data

Results flagged for a closer look

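In 120 sets of 1 member in 1 group, 23 had a library far from the others by Dixon's test, which chance does in about 1 of 20, and 21 of the 23 were replicate 4 of a group.

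For S100a8 the high library was replicate 4 in HSC at 681 CPM (wt), 650.4 CPM (het) and 584 CPM (ko), in HPC at 215 CPM (wt), 221 CPM (het) and 672 CPM (ko), and in ko pGM at 236 CPM. For S100a9 it was replicate 4 in HSC at 232 CPM (wt), 213 CPM (het) and 184 CPM (ko), in HPC at 67.9 CPM (wt), 68.2 CPM (het) and 229 CPM (ko), and in pGM at 81.5 CPM (wt) and 75.8 CPM (ko). Secondary granule genes were high in the same libraries, and their part was not tested.

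Replicate 4 of wt HSC was also high for Mpo at 979 CPM, Elane at 674 CPM and Prtn3 at 508 CPM. Replicate 4 was high for Ctsg in ko pGM at 861 CPM and for Igsf6 in ko HPC at 35.6 CPM. In wt HSC after PBS, replicate 4 held 0.723 CPM of Ctsg where the other libraries were near 0. Replicate 1 of het HPC was high for Ctsg at 104 CPM, and replicate 1 of het GMP was low for Mpo at 41582 CPM.

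The effect of ko against wt on Prtn3 differed between populations by the test of the difference itself, at -0.95 in GMP relative to HPC on the log2 scale (edgeR, adjusted p 0.00592, and 0.0762 without replicate 4).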

How the results depend on the processing

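Over all members, comparisons and alternatives, 3287 values kept direction and side of the threshold, 30 passed only under the alternative and 20 no longer passed. A further 219 changed sign without passing in either fit, such as Mpo for ko against wt HSC (-0.14, range -0.73 to 0.49) and S100a8 for ko against wt HPC (1.51, range -2.52 to 4.00), so these have no settled direction. No called value changed sign. Leaving out 1 library moved the members called from 0 to between 0 and 2 for ko against het HPC (2 without het library 1), from 1 to between 0 and 1 for ko against wt GMP, from 0 to between 0 and 1 for ko against wt HSC after IL-1, from 1 to between 0 and 1 for ko against wt HPC after PBS, and from 2 to between 2 and 3 for wt HPC against HSC (3 without HSC library 4).

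DESeq2 called 2 members, not 1, for ko against wt HPC, ko against wt GMP, IL-1 in wt HPC and ko against wt HPC after PBS. It called 1, not 0, for ko against het HPC, ko against wt pGM, IL-1 in wt HSC, IL-1 in ko HPC and ko against wt HSC after PBS. The share of all genes that DESeq2 called is not given beside these counts. Without the filter on low counts 2 were called for ko against wt HPC, 0 for ko against wt GMP and 1 for IL-1 in ko HPC. With the term for Y-linked expression 0 were called for ko against wt GMP and for ko against wt HPC after PBS. The fit over all libraries gave 1 for ko against het HPC, 0 for ko against wt GMP, 1 for IL-1 in wt HSC and 0 for ko against wt HPC after PBS.

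Without replicate 4 of every group, chosen after seeing the data, 0 were called for ko against wt HPC, 1 for ko against wt pGM, 0 for ko against wt GMP and 0 for the effect in GMP relative to HPC. Without the library labelled HSC wt IL1 1, 1 was called for ko against wt HSC after IL-1, and genes called went from 0 to 159. The cause was not tested.

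Outside ko against wt HPC after IL-1, not every same-numbered pair deviated together, and the labels do not tie the numbers to animals. Some signals did run with the number across untreated populations, such as Y-linked RNA under 1 CPM in ko replicates 1 and 4 of all 4 populations. With the replicate block 2 members were called for ko against wt HPC and 1 each for ko against wt pGM, IL-1 in wt HSC and IL-1 in ko HPC, 3 rather than 2 for wt HPC against HSC (Ctsg added, adjusted p 0.0426) and 7 rather than 5 for the wt step from pGM to GMP. Every library matched its own number best in het against wt HSC, IL-1 in ko HPC and ko against wt HPC after PBS, a match that does not tie the numbers to animals. In ko HPC Y-linked RNA stood at 0.082 CPM after PBS and 123 CPM after IL-1 in library 1, and at 152 and 0.0299 CPM in library 2. In library 3 it was under 1 CPM after both. Libraries 1 and 2 thus differed in sex-linked RNA between the treatments.

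Counts over all genes also moved. Ko against wt GMP called 67 genes, 16 to 66 with 1 library left out and 3 without replicate 4. For ko against wt HPC the 146 genes became 80 to 99 and 41, and for ko against wt HPC after PBS the 41 became 7 to 17.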
